A study of Mus musculus with 36 samples.

Results

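Unstimulated C2C12 myotubes were harvested as controls at 0 min and later at 30, 60, 120, 180 and 240 min, in parallel with cells that received electrical pulse stimulation (EPS). These 18 control samples, 3 at each of the 6 times, are described here out of 36 samples in the series, and they were selected by the control label in the sample titles. No EPS-stimulated sample entered any value. C2C12 is a mouse skeletal muscle cell line, and all controls were differentiated from myoblasts to myotubes by a switch from fetal bovine serum to horse serum. The study calls its replicates independent experiments, whereas the labels give only a replicate number, so the p-values measure the spread between the samples of 1 cell line. Methylation of 3 promoters was measured, and no marker of muscle identity is among them.

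DNA methylation at a CpG is a methyl group on a cytosine followed by a guanine. CpG-rich promoters are usually kept free of it, and the methylated state rises towards the edges of such CpG islands. Bisulfite converts unmethylated cytosine to a base read as thymine and leaves methylated cytosine, and also hydroxymethylated cytosine, to be read as cytosine. Nr4a3 encodes an orphan nuclear receptor that is switched on early after muscle contraction. Ccnd1 encodes cyclin D1, which takes cells from rest into the cell cycle. Ppard encodes the peroxisome proliferator-activated receptor delta, a nuclear receptor that controls fatty acid oxidation in muscle. The control time course measures how far these promoters vary with time in culture and between replicates when no pulse is given.

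Methylation was listed in percent for 171 cytosines around the transcriptional start site (TSS), and 117 of these had a value in all 18 control samples. Neighbouring sites more than 200 bp apart were placed in separate blocks, which gave 6 blocks, and 5 of them held complete sites. The distal Nr4a3 block holds 38 complete sites from −2326 to −2050 bp. The upstream Ppard block holds 12 complete sites from −300 to −127 bp, and the intronic Ppard block 8 sites from +706 to +852 bp. Ccnd1 is transcribed from the minus strand, so its listed positive distances lie upstream of the gene. Its near block holds 16 sites listed at +389 to +566 bp and its far block 43 sites listed at +1260 to +1643 bp. In the mouse annotation no gene overlaps the distal Nr4a3 block, either Ccnd1 block or the complete upstream Ppard sites. The intronic Ppard block lies within Ppard and overlaps no exon.

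Sequences are shown for the stretches in which the level of neighbouring cytosines differed most, with the plus strand of GRCm38 (RefSeq) written 5′ to 3′. Capitals mark the listed cytosines, and in Ccnd1 they fall on G because the listed cytosine is on the minus strand. The Nr4a3 stretch, chr4:48042999-48043103, runs from −2154 to −2050 bp and has a GC content of 77.1%. The Ppard stretch, chr17:28232454-28232627, covers the complete upstream sites. The Ccnd1 stretch, chr7:144941129-144941353, covers the listed distances +1260 to +1484.
Nr4a3, −2154 to −2050: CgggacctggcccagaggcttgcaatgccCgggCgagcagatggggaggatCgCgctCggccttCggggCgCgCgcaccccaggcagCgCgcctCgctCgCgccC
Ppard, −300 to −127: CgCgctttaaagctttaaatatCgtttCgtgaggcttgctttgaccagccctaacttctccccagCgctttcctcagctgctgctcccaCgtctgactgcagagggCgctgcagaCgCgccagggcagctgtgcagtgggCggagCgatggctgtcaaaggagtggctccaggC
Ccnd1, listed +1260 to +1484: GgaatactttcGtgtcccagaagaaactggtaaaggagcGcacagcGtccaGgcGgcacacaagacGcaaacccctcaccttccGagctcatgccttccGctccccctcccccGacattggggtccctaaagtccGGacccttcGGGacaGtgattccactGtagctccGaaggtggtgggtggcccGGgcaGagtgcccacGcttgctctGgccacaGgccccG
The printed Nr4a3 stretch holds 15 CpG dinucleotides in 105 bases. The Ppard stretch holds 11 in 174 bases, and the Ccnd1 stretch 14 in 225 bases.

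Baseline methylation was low in every block when averaged over the 18 control samples. The intronic Ppard block had the highest mean, 4.87% ± 0.512 (SD, n = 18). It was followed by the far Ccnd1 block with 3.29% ± 0.210, the upstream Ppard block with 2.54% ± 1.14, the distal Nr4a3 block with 2.08% ± 2.88 and the near Ccnd1 block with 1.98% ± 0.800 (SD, n = 18 each). The SDs of the last 3 blocks exceed the gaps between their means. The order depended on the sites taken. Over CpG sites alone the far Ccnd1 mean was 4.57% and the intronic Ppard mean 4.37%, and between the primers these were 0.408% and 5.10%. A block mean hid a wide range among its sites. Site means differed 42.3-fold within the distal Nr4a3 block, 40.8-fold within the far Ccnd1 block and 12.6-fold within the upstream Ppard block, against 3.83-fold in the near Ccnd1 block and 2.30-fold in the intronic Ppard block.

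**Figure D1:**
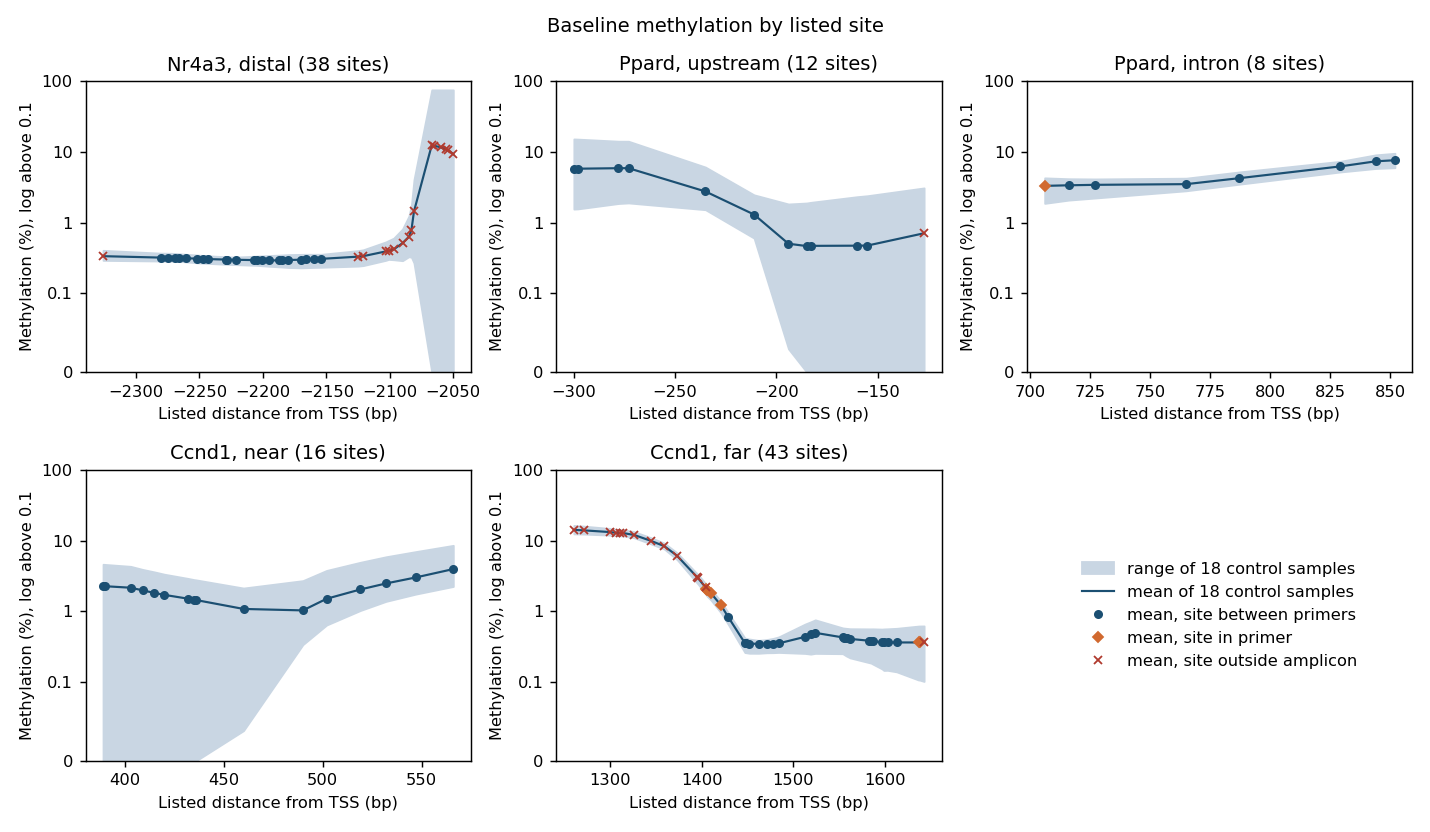
Methylation in percent, on an axis that is logarithmic above 0.1%, against the listed distance from the TSS for the 5 blocks with complete sites. Lines are means of the 18 control samples, bands run from the lowest to the highest sample, and marker shapes show whether a site lies between the primers, in a primer or outside the amplicon. The mean climbs to 12.4% at −2067 bp of Nr4a3, and it falls from 14.1% to 0.346% along the far Ccnd1 block.

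Along Nr4a3 the level was flat and then rose steeply. The lowest site mean was 0.293% at −2187 bp, and the 22 sites between the bisulfite primers averaged 0.304% ± 0.0244 (SD, n = 18). The last sites lie beyond the primer pair, and how sites outside an amplicon received values is not given in the sources used here. There the mean reached 1.44% at −2081 bp and 12.4% at −2067 bp. Along far Ccnd1 the order was the opposite in listed distance. The first site, at +1260 bp, had the highest mean of all complete sites, 14.1% ± 1.13 (SD, n = 18), with samples from 12.4% to 16.3%. The lowest was 0.346% at +1471 bp. The 23 sites between the primers of this amplicon averaged 0.408% ± 0.0720, whereas the 13 sites listed from +1260 to +1404, outside the amplicon on the side of the gene, averaged 9.54% ± 0.626 (SD, n = 18 each).

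Upstream of Ppard, the 4 sites from −300 to −273 bp averaged 5.83% ± 2.79 and the 5 sites from −194 to −155 bp averaged 0.477% ± 0.499 (SD, n = 18 each). The lowest of the former group of means was 1.72% and the highest of the latter 2.08%. In the Ppard intron the listed level rose with distance, from 3.37% at +716 bp to 7.61% at +852 bp, both inside the primer pair. The first listed site, +706 bp with 3.30%, lies in a primer. A base within a primer comes from the oligonucleotide and not from the template, and 7 of the 117 complete sites lie in a primer, 79 between primers and 31 outside the amplicons. The near Ccnd1 block was lowest in its middle, with 1.03% at +490 bp, 2.27% at the first site and 3.95% at the last. Of the 117 complete sites, 87 are CpG sites, 28 are in a CHG context (H is A, C or T) and 2 in a CHH context. The highest site of the Ppard intron, +852 bp, is a CHG site beside a CpG at +844 bp with 7.35%. Neighbouring sites varied together, with a median correlation between neighbours across the 18 samples of 0.966 to 0.998 per block, and a lowest one of 0.632 to 0.796.

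The spread between replicates differed between blocks. The SD within time points, pooled over the 6 times, was 6.72% of the mean in the far Ccnd1 block and 12.0% in the Ppard intron. It was 39.2% in the upstream Ppard block, 46.4% in the near Ccnd1 block and 144% in the distal Nr4a3 block. The lowest and highest samples differed 1.28-fold in the far Ccnd1 block and 47.9-fold in the distal Nr4a3 block. Between the primers the order differed, with 7.30% of the mean at the 22 Nr4a3 sites, 11.8% in the Ppard intron and 18.0% at the 23 far Ccnd1 sites. At the last 6 Nr4a3 sites, described next, it was 169%.

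The 6 Nr4a3 sites from −2067 to −2050 bp took values from 0% to 75% in control cells. Their mean per sample at 0 min was 2.83%, 5.90% and 5.44% in replicates 1, 2 and 3. At 30 min it was 1.62%, 75% and 9.22%, and at 60 min it was 1.18%, 7.31% and 33.3%. At 0 min the 3 samples lay close together, while 1 sample stood far above the others at 30 min and 1 at 60 min. The means were 0%, 16.0% and 6.34% at 120 min, 8.98%, 3.01% and 0% at 180 min, and 0%, 4.06% and 20.2% at 240 min. Values were the same at all 6 sites (within 1e-06 percentage points) in 5 samples, those at 75%, at 33.3% and at 0%. Over the 18 samples the mean was 11.1% and the median 5.67%, and without the 2 highest samples the mean was 5.76%. The mean over the remaining 32 sites of the block was 0.383% ± 0.0744 (SD, n = 18), and the highest sample had a mean of 0.517%. The highest of these 32 sites, −2081 bp, had values up to 4.04%. These 6 sites were set apart after their values were seen.

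**Figure D2:**
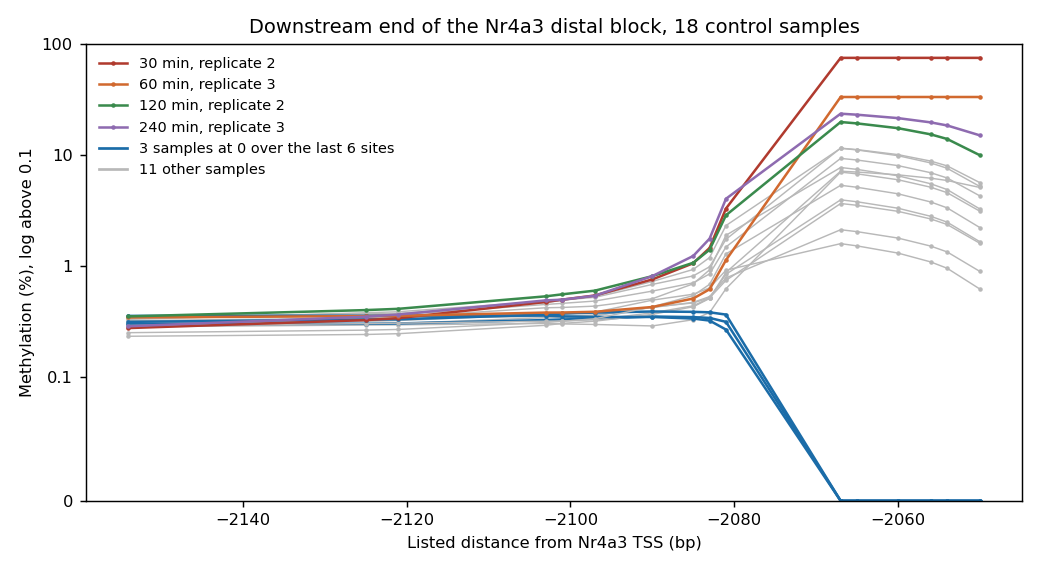
Methylation in percent, on an axis that is logarithmic above 0.1%, at the Nr4a3 sites from −2154 to −2050 bp, with 1 line for each of the 18 control samples. The samples run together near 0.3% at the left and then separate, with 3 at 0% and others up to 75%.

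Later control harvests were compared with the 0 min controls for each block. The mean over the sites of a block was taken in each sample, and the 3 samples of a later time were set against the 3 at 0 min by an exact permutation test (two-sided), which cannot give a p under 0.1 with these group sizes. The groups overlapped in all 25 comparisons (5 blocks, 5 later times), and the smallest exact p was 0.2. The adjusted p (Benjamini-Hochberg) was 1.00 for each of the 25. Intervals of 95% around each difference were made from the SD pooled over the 6 times, with 12 residual degrees of freedom, and each of the 25 holds 0.

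**Figure D3:**
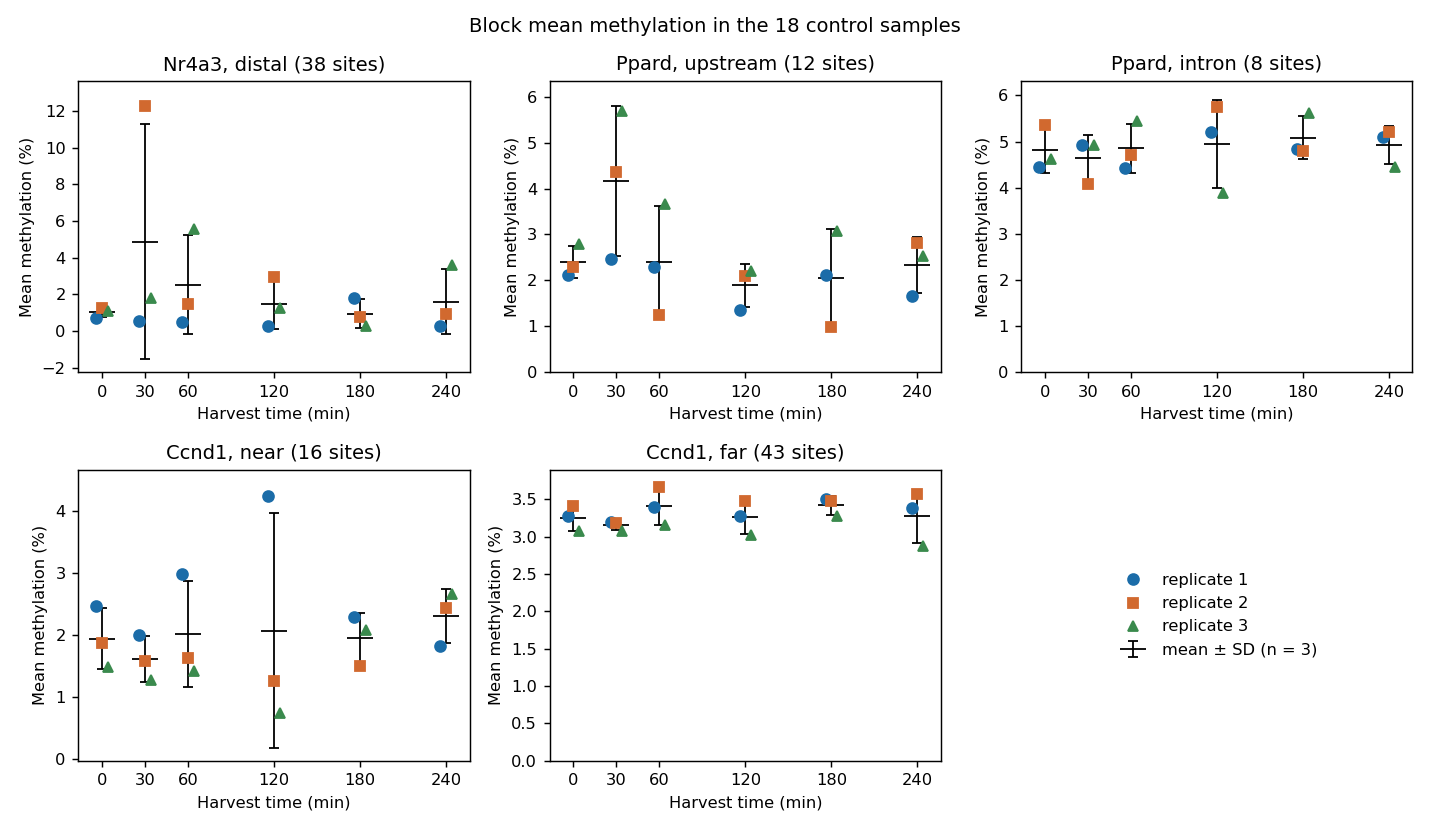
Mean methylation per block, in percent, against harvest time in min for the 18 control samples. Symbols are the 3 replicates, and bars are the mean ± SD of 3 samples. The 30 min samples of the upstream Ppard block reach 5.69%, and 1 sample of the distal Nr4a3 block lies at 12.3%.

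The distal Nr4a3 block was 0.718%, 1.28% and 1.12% in the 3 samples at 0 min and 0.561%, 12.3% and 1.83% at 30 min. The 0 min mean was 1.04% ± 0.289 and the 30 min mean 4.88% ± 6.42 (SD, n = 3 each). These differed by 3.84 percentage points (95% interval −1.50 to 9.19, p = 0.500 in the exact permutation test), and the groups overlapped. Without replicate 2 at 30 min the difference was 0.158 percentage points. The differences at 60, 120, 180 and 240 min were 1.48, 0.452, −0.0860 and 0.568 percentage points. Without the last 6 sites, the 0 min mean was 0.347% ± 0.0590 (SD, n = 3), and the later means lay between 0.373% at 120 min and 0.432% at 30 min, where 0 min and 30 min samples again overlapped. Between the primers the 3 samples at 0 min were 0.281%, 0.313% and 0.287% and those at 180 min 0.329%, 0.312% and 0.329%. The 180 min mean was 0.0296 percentage points above that at 0 min (p = 0.200, exact permutation test).

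Of all blocks, the upstream Ppard block had the largest share of its variance between times, 46.2%. Its samples were 2.12%, 2.28% and 2.80% at 0 min and 2.46%, 4.35% and 5.69% at 30 min. The mean was 2.40% ± 0.353 at 0 min and 4.17% ± 1.63 at 30 min (SD, n = 3 each), and 1 of the 3 samples at 30 min lay inside the 0 min range. The difference of 1.76 percentage points had an interval of −0.00514 to 3.53 (exact permutation test, p = 0.200), and it was 1.00 without replicate 3 at 30 min and 2.62 without replicate 1. In percentage points the difference was widest in the sites farthest upstream. There, the 4 sites from −300 to −273 bp had 4.63%, 5.38% and 6.19% at 0 min and 5.85%, 8.17% and 14.6% at 30 min. On the log2 scale described below, the 30 min difference was 0.82 at −300 bp, 0.95 at −211 bp and 1.22 at −194 bp. The standard errors were 0.55, 0.40 and 0.83. Nearer the TSS the log2 difference was 0.75 at −185 bp and 0.65 at −183 bp, and it was negative at −160, −155 and −127 bp. The sizes of the negative differences depend on the limit on beta described below, so only their sign is given. At 60, 120, 180 and 240 min the block means were 2.40%, 1.89%, 2.06% and 2.33%, each within 1 pooled SD (0.994) of the 0 min mean. The 5 sites from −194 to −155 bp had 0.491%, 0.384% and 0.469% at 0 min and 0.00590%, 0.252% and 0.176% at 120 min. These groups did not overlap (difference −0.303 percentage points, p = 0.1 in the exact permutation test), in a comparison in which 3.42% of all 117 sites did not overlap. That share consists of 4 sites, all in the upstream Ppard block and 3 of them between the primers. The group of 5 sites was chosen after its values were seen.

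The intronic Ppard block had 4.44%, 5.36% and 4.63% at 0 min, a mean of 4.81% ± 0.487 (SD, n = 3). Later means lay between 4.64% at 30 min and 5.08% at 180 min. The widest difference of the block means, 0.270 percentage points at 180 min, had an interval of −0.774 to 1.31 (exact permutation test, p = 0.500). It ran from −0.000733 to 0.545 with 1 sample left out in turn, and it was −0.0702 with the median over sites. At 120 min the samples were 5.21%, 5.75% and 3.89%, which spans the lowest and the highest of the 18 controls.

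The near Ccnd1 block had 2.46%, 1.87% and 1.48% at 0 min, a mean of 1.94% ± 0.496 (SD, n = 3). At 240 min it had 1.82%, 2.43% and 2.66%, and the difference of 0.369 percentage points (95% interval −1.26 to 2.00; exact permutation test, p = 0.500) ran from 0.14 to 0.633 with 1 sample left out in turn. At 30 min the difference was −0.323 percentage points and ran from −0.552 to −0.0594 with 1 sample left out. The 120 min samples, 4.24%, 1.25% and 0.730%, held both the highest and the lowest of the 18 controls in this block.

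Over all listed sites the far Ccnd1 block had the smallest spread of the 5, which did not hold between the primers. Its samples were 3.27%, 3.41% and 3.07% at 0 min, 3.19%, 3.18% and 3.07% at 30 min and 3.40%, 3.67% and 3.16% at 60 min. The samples at 180 min were 3.51%, 3.47% and 3.27%, against a 0 min mean of 3.25% ± 0.172 (SD, n = 3). The difference at 180 min was 0.166 percentage points (95% interval −0.228 to 0.559; exact permutation test, p = 0.3), and that at 120 min was 0.00726. With 1 sample left out in turn, the 180 min difference ran from 0.0748 to 0.246, and between the primers it was −0.00329. Between the primers, the 0 min samples were 0.487%, 0.407% and 0.457% and the 240 min samples 0.382%, 0.400% and 0.253%. The groups did not overlap over these 23 sites and differed by −0.105 percentage points (p = 0.1, exact permutation test), in a comparison in which 11.1% of all 117 sites did not overlap. That share consists of 13 sites, all in the far Ccnd1 block and 10 of them between the primers.

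**Figure D4:**
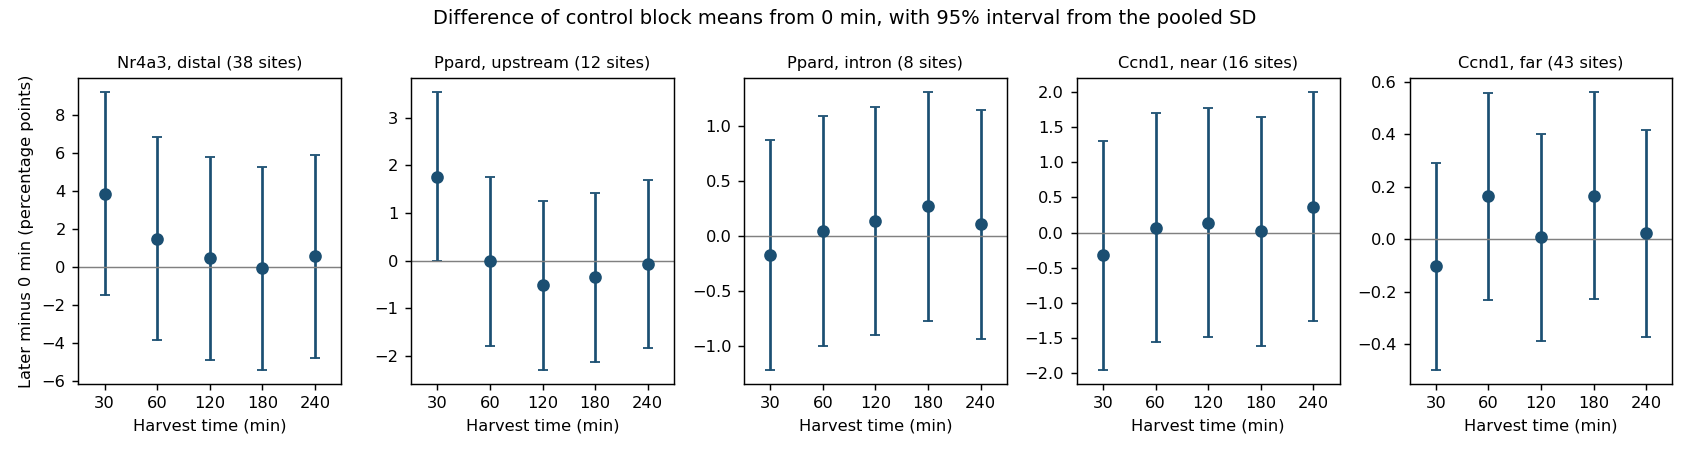
Difference in block mean between each later harvest and 0 min in control cells, in percentage points, with 95% intervals from the SD pooled over the 6 harvest times. Panels have separate axes, and all 25 intervals hold 0. The interval for upstream Ppard at 30 min, −0.00514 to 3.53, lies almost wholly above 0.

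Over the 6 time points together, a permutation test of the time labels with 100000 resamples gave p = 0.127 for the upstream Ppard block (adjusted p = 0.636). For the distal Nr4a3 block the permutation test gave p = 0.674, for the far Ccnd1 block p = 0.653, for the near Ccnd1 block p = 0.977 and for the Ppard intron p = 0.958 (adjusted p = 0.977 for each). Time accounted for 6.98% of the variance among samples in the near Ccnd1 block and 7.37% in the Ppard intron. Part of such a share, as also of the 46.2% in the upstream Ppard block, arises when nothing differs. The upstream Ppard p ranged from 0.0208, without replicate 1 at 30 min, to 0.561, without replicate 3 at 30 min.

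Each of the 117 complete sites was tested with limma on log2(beta/(1 − beta)), where beta is the methylated fraction, against 0 min at the 5 later times. Of these 585 tests, limma called 0 at an adjusted p under 0.05 (0% of tests), and 9 had an unadjusted p under 0.05. The F-test over the 6 times called 0 of 117 sites, with 0 at an unadjusted p under 0.05. The 9 tests comprised 7 far Ccnd1 sites at 240 min, all lower, listed between +1462 and +1643 bp, and 2 upstream Ppard sites. Of the 7 Ccnd1 sites, 4 lie between the primers, 2 in a primer and 1 outside the amplicon. At −211 bp of Ppard the log2 difference was 0.95 (standard error 0.40) at 30 min (adjusted p of 0.994 in limma). The other Ppard site, −127 bp at 120 min, lies outside the amplicon. It had 1.07%, 0.330% and 3.09% at 0 min and 0%, 0.126% and 0% at 120 min, and the size of its log2 difference was set by the limit of 0.001 on beta, so it is not given. The smallest p at 240 min was at +1478 bp of Ccnd1, where the log2 value differed by −0.43 (standard error 0.16), with an adjusted p of 0.994 in limma. At 180 min it was at −2207 bp of Nr4a3, with 0.17 (standard error 0.10), and at 60 min at +1599 bp of Ccnd1, with −0.78 (standard error 0.39).

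Sites whose 3 later samples all lay on 1 side of the 3 samples at 0 min numbered 13 of 117 at 30 min (11.1%), 9 at 60 min (7.69%), 4 at 120 min (3.42%), 11 at 180 min (9.40%) and 13 at 240 min (11.1%). All 13 at 240 min were lower far Ccnd1 sites, 10 of them between the primers. At 180 min, 10 of the 11 were distal Nr4a3 sites and all 11 were higher. At 30 min, 10 were lower far Ccnd1 sites, 5 of them between the primers, and 3 were higher upstream Ppard sites. At 60 min, 5 were higher distal Nr4a3 sites and 4 lower far Ccnd1 sites, and all 4 at 120 min were lower upstream Ppard sites. When nothing differs, 3 samples lie wholly on 1 side of 3 others with a probability of 0.1. Since most neighbouring sites varied together across samples, these counts are not counts of independent sites.

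Replicate 3 was the lowest of the 3 samples in the far Ccnd1 block at 6 of 6 times. Averaged over the 6 times the block had 3.34% ± 0.111 in replicate 1, 3.46% ± 0.167 in replicate 2 and 3.08% ± 0.133 in replicate 3 (SD, n = 6 each). Replicate 2 exceeded replicate 3 by a mean of 0.384 percentage points, between 0.105 and 0.687 at single times. The replicate number accounted for 61.3% of the variance in this block and harvest time for 21.7%. Part of each share arises also when nothing differs, and more so for 6 times than for 3 replicate numbers. In an exact permutation test of the replicate numbers within each time (46656 relabelings), p was 0.000514, and 0.00257 after adjustment over the 5 blocks. This test was added after the pattern was seen. The call was lost with the median over sites (adjusted p = 0.859 in the exact permutation test), on the log2 scale (0.626) and with each sample centered on its mean over all sites (0.658). The labels do not say that a number marks the same experiment at different times.

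**Figure D5:**
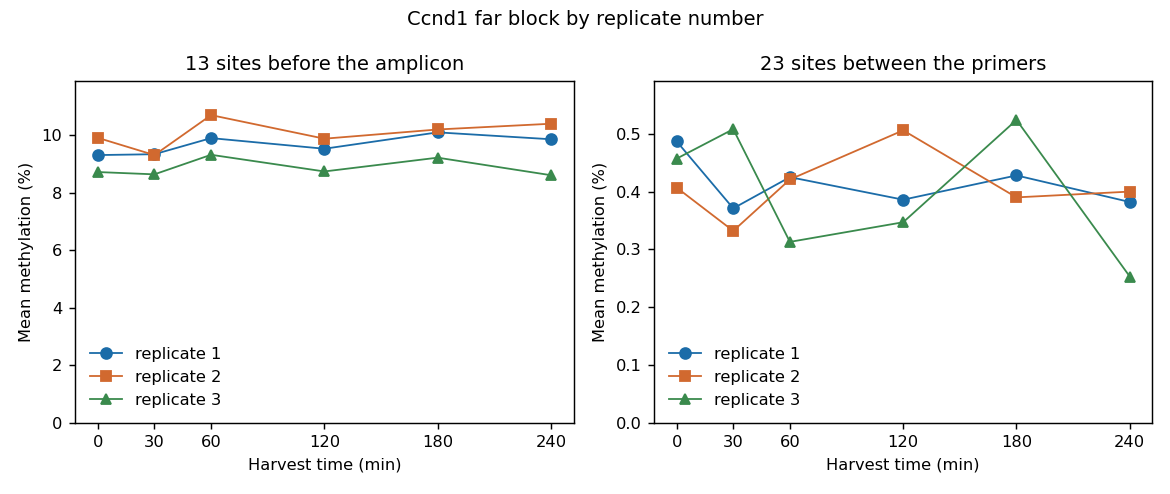
Mean methylation in percent against harvest time in min, with 1 line per replicate number, for the 13 far Ccnd1 sites listed from +1260 to +1404 and for the 23 sites between the primers of the same amplicon. Replicate 3 lies lowest at all 6 times in the former, between 8.61% and 9.32%, and the lines cross in the latter.

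The difference lay at the far Ccnd1 sites with the highest listed levels, in the sequence printed above. All 13 of these sites are outside the amplicon, where the origin of the values is not given in the sources used here. At the 13 sites listed from +1260 to +1404, replicate 1 averaged 9.68% ± 0.330, replicate 2 10.1% ± 0.486 and replicate 3 8.87% ± 0.311 (SD, n = 6 each). The samples of replicate 3 were 8.72%, 8.64%, 9.32%, 8.74%, 9.22% and 8.61% from 0 to 240 min. At the 23 sites between the primers the averages were 0.413%, 0.409% and 0.400%, and the exact permutation test gave p = 0.959. In limma, with time and replicate number in 1 model, 8 of 117 sites were called for replicate number (6.84%), all 8 in the far Ccnd1 block, and 18 had an unadjusted p under 0.05. The called sites run from +1260 to +1344 bp. At +1260 bp the log2 difference between replicates 2 and 3 was 0.26. The limma test of replicate number there, over all 3 numbers together, had an adjusted p of 0.00359. With each sample centered, limma called 0 sites for replicate number.

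In the upstream Ppard block, replicate 3 was highest at 5 of 6 times and averaged 3.33% ± 1.26, against 2.00% ± 0.412 in replicate 1 (SD, n = 6 each; exact permutation test, p = 0.0274, adjusted p = 0.0685). In the near Ccnd1 block replicate 1 was highest at 5 of 6 times, with 2.63% ± 0.886, against 1.61% ± 0.675 in replicate 3 (exact permutation test, p = 0.0581, adjusted p = 0.0969). Neither passed the threshold of 0.05. With each time left out in turn, near Ccnd1 passed it only without 240 min (adjusted p = 0.0135, exact permutation test), the 1 time at which replicate 1 was not the highest, so this p follows from the time removed. In the distal Nr4a3 block replicate 1 was lowest at 5 of 6 times, with 0.683% against 3.28% in replicate 2 and 2.28% in replicate 3 (exact permutation test, p = 0.343, adjusted p = 0.428). Without the last 6 Nr4a3 sites, replicate 1 was lowest at 3 of 6 times. The means were then 0.354%, 0.418% and 0.378% in replicates 1, 2 and 3 (exact permutation test, p = 0.438). The Ppard intron showed no such order, with 4.82%, 4.98% and 4.82% in replicates 1, 2 and 3 (adjusted p = 0.870, exact permutation test).

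All amplicons of a sample came from 1 multiplexed PCR, so blocks were compared across the 18 samples in 10 pairs. None had an adjusted p under 0.05. The far Ccnd1 and upstream Ppard blocks had Pearson's r = −0.491 (permutation test, p = 0.0381, adjusted p = 0.284) and Spearman's rho = −0.562 (permutation test, p = 0.0170, adjusted p = 0.170). Without the 2 samples farthest from the median of the far Ccnd1 block, r was −0.511, but over the sites between the primers it turned to 0.113. Replicate 3 was lowest in far Ccnd1 at 6 of 6 times and highest in upstream Ppard at 5 of 6, and the part of the replicate number in this relation was not tested. The distal Nr4a3 and upstream Ppard blocks had r = 0.500 (permutation test, p = 0.0567, adjusted p = 0.284) and rho = 0.391 (permutation test, p = 0.109, adjusted p = 0.363). This relation rested on 2 samples, since without the 2 farthest from the Nr4a3 median r was 0.196. For the near Ccnd1 and distal Nr4a3 blocks, rho was −0.482 (permutation test, p = 0.0445, adjusted p = 0.223) and r was −0.256 (permutation test, p = 0.246). The 2 Ccnd1 blocks had r = 0.112 (permutation test, p = 0.661) and the 2 Ppard blocks r = −0.0388 (permutation test, p = 0.879).

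The 54 incomplete sites were described and not tested. At the proximal Nr4a3 block, 23 CpG sites from −260 to −45 bp had a value in 13 to 15 of the 18 controls, and 285 of the 317 values were listed at 0%. Values above 0% occurred in 2 samples, replicate 2 at 30 min and replicate 3 at 60 min, and reached 13.9%. These are also the 2 samples with 75% and 33.3% at the last distal Nr4a3 sites. Around the Ppard TSS, 31 sites from −1 to +252 bp had a value in only 2 or 3 of the 18 controls, and all 84 values were listed at 0%. The depth behind these values is unknown, so no upper limit can be set on them.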

How the data were processed

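Targeted bisulfite sequencing was performed by the authors on 36 samples, of which the 18 controls were analysed. Per the labels and the study's methods, reads were trimmed with Trim Galore 0.3.7 and cutadapt 1.4.2, mapped to mm10 and quantified with Bismark, and the authors deposited methylation in percent per cytosine and sample. Coverage is not given in that table, so the depth and precision of single values are unknown. A smoothing step is not stated, but the deposited values change gradually between neighboring sites and also cover sites in primers and outside the amplicons. Single-site values may therefore not be separate measurements, and whether they were smoothed was not tested. The authors' p-values for EPS against control were not used. Replicate numbers came from the sample titles. In 1 control sample at 0 min the replicate field gives 2 and the title 3.

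The members, blocks and tests were chosen with earlier results of these data known. Positions and contexts were read from GRCm38.p6, on which all 171 listed positions are cytosines on the amplified strand, and genes from GENCODE. Primers were matched to the converted reference, with 1 location for each pair.

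The 117 sites with a value in all 18 controls were averaged per block and sample. Blocks were split at gaps over 200 bp. Tests were two-sided exact permutation tests (20 relabelings), permutation tests with 100000 resamples and limma (version 3.58.1, R 4.3.3). For limma, the percent values were turned into beta, kept at least 0.001 from 0 and from 1, and its logit to base 2 was fitted, with Benjamini-Hochberg adjustment over 585 tests or 117 sites. limma was also run on data simulated from the residuals of these samples, with an added shift larger than any log2 difference given here. That run does not show how well smaller changes are found. Python 3.11.15, numpy 2.4.6, scipy 1.17.1 and pandas 2.3.3 were used. Named sites were the first, last, highest, lowest, most variable and smallest F-test p of each block and the smallest p of each contrast. Alternatives were the median over sites, other site sets, scales and references, centred samples, a replicate block and each sample left out.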

Additional observations from a re-analysis of the deposited data

How the results depend on the processing

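The exact test of 3 against 3 cannot pass 0.05, so only signs and sizes of the differences from 0 min were compared. limma called 0 sites against 0 min and 0 in the F-test under each one run, including a replicate block (14 of 585 tests at an unadjusted p under 0.05) and a linear slope on time (3 of 117). Keeping sites with missing values added no site to limma. In the block means it added the incomplete Ppard sites, and upstream Ppard then differed from 0 min by −0.555 at 60 min and −1.04 at 180 min, against −0.00633 and −0.348. The added sites had only values of 0%, in replicate 1 at 60 min and replicates 1 and 2 at 180 min. They had no value at 0 min, so only the means of those later samples were lowered. Of 185 recomputed differences, 35 changed sign, and of 150 with a sample left out, 36 did. Part of the 185 could not change. The replicate block keeps the difference as it is, and in some blocks an alternative set of sites is the same as the main one. The cause of the sign changes was not tested.

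The differences that changed sign are given in percentage points, except those on the log2 scale. With the median over sites, near Ccnd1 was −0.205 (120 min) and −0.144 (180 min), far Ccnd1 −0.0595 (60 min), −0.0445 (120 min) and −0.0857 (240 min), Nr4a3 0.0203 (180 min) and −0.0175 (240 min), and intronic Ppard −0.0726 (60 min), −0.0702 (180 min) and −0.0903 (240 min). Between the primers, far Ccnd1 was −0.0642 (60 min), −0.0377 (120 min), −0.00329 (180 min) and −0.105 (240 min), Nr4a3 0.0296 (180 min) and −0.0142 (240 min), and upstream Ppard 0.0710 (60 min) and 0.0296 (240 min). With samples centred on their mean over all sites, near Ccnd1 was −0.482 (60 min) and −0.00310 (180 min), far Ccnd1 −0.390 (60 min), −0.118 (120 min) and −0.220 (240 min), and intronic Ppard −0.509 (60 min) and −0.137 (240 min). Without the last 6 Nr4a3 sites, Nr4a3 at 180 min was 0.0343. On the log2 scale, values listed at 0% were held at the limit of 0.001 on beta. The sizes for near Ccnd1 at 120 min and for Nr4a3 at 120 and 240 min therefore depend on that limit. As log2 differences, near Ccnd1 was −0.06 (60 min), −0.73 (120 min) and −0.0453 (180 min), far Ccnd1 −0.16 (60 min), −0.0761 (120 min) and −0.30 (240 min), Nr4a3 −0.13 (120 min) and −0.16 (240 min), and intronic Ppard −0.0220 (240 min).

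With 1 sample left out in turn, the range in percentage points was −0.417 to 0.365 (60 min), −0.945 to 0.811 (120 min) and −0.215 to 0.278 (180 min) for near Ccnd1. It was −0.102 to 0.128 (120 min) and −0.123 to 0.221 (240 min) for far Ccnd1, and −0.0491 to 2.50 (60 min), −0.283 to 1.07 (120 min), −0.516 to 0.250 (180 min) and −0.442 to 1.24 (240 min) for Nr4a3. For upstream Ppard it was −0.640 to 0.571 (60 min), −0.860 to 0.193 (180 min) and −0.314 to 0.266 (240 min). For intronic Ppard it was −0.358 to 0.113 (30 min), −0.247 to 0.320 (60 min), −0.264 to 0.670 (120 min), −0.000733 to 0.545 (180 min) and −0.0798 to 0.382 (240 min). The p over time for upstream Ppard ran from 0.0208 to 0.561.

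The adjusted p for replicate number in far Ccnd1 was 0.859 with the median over sites, 0.959 between the primers, 0.626 on the log2 scale and 0.658 with centred samples, where limma called 0 sites. In near Ccnd1 it was 0.0135 without the 240 min samples, the 1 time against that block's order, so this value follows from the time removed. The titles' numbers did not pair the samples by the set rule, since 30 of 45 same-numbered pairs of samples correlated over 0.1. The median correlation was 0.332 for these and −0.238 for the 90 other pairs, and 11 of 18 samples correlated best with their own number. With the replicate block, the exact test of 3 pairs allows no p under 0.25, and the difference from 0 min was the same by construction, 1.76 for upstream Ppard at 30 min. The p over time for upstream Ppard was 0.0537 with the replicate block.

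Of 40 recomputed correlations 9 changed sign. Near and far Ccnd1 had −0.0307 (median) and −0.0862 (primers), far Ccnd1 and Nr4a3 0.254 (median) and 0.436 (primers), and Nr4a3 and intronic Ppard 0.299 (median) and 0.581 (primers). Far Ccnd1 and upstream Ppard had 0.113 between the primers, and the 2 Ppard blocks 0.172 centred on time means and 0.225 without 2 samples. The baseline mean moved to 0.448% (median), 0.408% (primers) and 4.57% (CpG sites) for far Ccnd1, to 1.07% and 3.94% (median) for upstream and intronic Ppard, and for Nr4a3 to 11.1% at the last 6 sites, 0.383% without them and 0.304% between the primers. Coverage is unknown, so no coverage minimum was tried.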
